A study of Homo sapiens with 18 samples.

Results

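Human cerebral organoids of the embryonic stem cell line H9 were compared after a week of daily dopamine and after vehicle, 3 libraries against 3, which are 6 of the 18 libraries of the study. The libraries of each group were taken from their treatment and line labels. Chronic libraries 10, 11 and 12 came from organoids dosed daily with 1 µM dopamine over 1 week, the last dose being left on for 1 hour. Control libraries 16, 17 and 18 received 100 µM ascorbic acid, the vehicle, on the same schedule, and the same 100 µM was present in every dopamine dose, so all 6 libraries carry an antioxidant. The organoids were 83 days old, and none of the groups carries a genetic change. They had been patterned with a ventral forebrain protocol that blocks BMP, TGF beta and Wnt signals first and then adds sonic hedgehog (SHH) and purmorphamine, an agonist of the hedgehog receptor complex. The other groups of the study are acute dopamine in H9 (libraries 13, 14 and 15), given as 1 dose of 1 hour after a week of vehicle, and the same 3 treatments in the line H1. H9 is a single line, and no label states that the 3 libraries of a group are separate cultures. The p-values therefore reflect library-to-library spread, part or all of which may be technical.

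Dopamine signals through 2 families of receptors, the D1 family (DRD1, DRD5), which raises cyclic AMP, and the D2 family (DRD2, DRD3, DRD4), which lowers it. It is made from tyrosine by TH and DDC, loaded into vesicles by SLC18A2 and broken down by enzymes such as MAOA. In water it also oxidises to quinones and peroxide, and reactive oxygen species are named in the title of the study. In the embryo, ventral forebrain tissue under hedgehog signalling makes GABAergic neurons, while midline and dorsal tissue such as roof plate, floor plate and meninges makes Wnt proteins, matrix and cilia.

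The RNA profile of all 6 libraries was that of neural tissue with GABAergic neurons. All 6 neuronal markers checked and all 7 GABAergic markers had counts in each library. Of 7 ventral forebrain and hypothalamic markers, NKX2-1 had 794 to 1085 counts per library and NKX2-2 754 to 1263, whereas RAX and SIX6 were at 0 or 1 count outside control library 17 (99 and 33 counts). Dorsal forebrain markers were low, with 73 to 167 counts per library summed over 6 genes. Among them EMX1 had 0 to 10 counts, NEUROD6 10 to 59 and SLC17A7 39 to 66.

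Within the control group the libraries were not alike. Summed over 8 blood markers, libraries 17 and 18 held 1279 and 3058 counts, against 84 in control library 16 and 82 to 113 in the chronic libraries. HBB, adult beta globin, had 398 and 1829 counts in 17 and 18 and 0 to 2 in the other 4. The 6 markers of gut epithelium together had 1 and 3 counts in 17 and 18, and 49 to 71 in the other 4. Acute library 13 was like 17 and 18 in both respects (HBB 464 counts, gut markers 2). The collagen-producing mesenchyme markers summed to 432 and 359 CPM (a library-size-scaled count, here by the TMM method of edgeR) in 17 and 18, to 66.1 in 16 and to 36.6 to 44.1 in the chronic libraries, and none of the 6 was at 0. Among the chronic libraries, library 11 stood apart on the first principal component of the 9 H9 libraries (76.5, against -23.8 to 9.38), and 256 genes lay at least 2-fold below all other H9 libraries in it. Total counts were 15088719 in library 11 to 19114315 in library 18, so that 3 counts correspond to 0.16 to 0.207 CPM. These features divide the groups unequally, since both blood-bearing libraries are controls. Their part in the results was not tested, and values without 17 and 18 stand beside most of the lower genes described.

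Most genes called for chronic dopamine in H9 were lower. In bulk RNA fewer cells of a type and less RNA per cell cannot be told apart. Of 17173 genes tested, 96 fell (0.559%) and 3 rose (0.0175%) at a Benjamini-Hochberg adjusted p under 0.05 in edgeR's quasi-likelihood test, 0.576% in all. At an unadjusted p under 0.05, 1059 were lower and 368 higher. With 1 surrogate variable in the fit this excess turned round, to 809 lower and 1637 higher, while 26 lower and 7 higher genes were called. The 96 included collagens, the Wnt ligand WNT5A and homeobox factors such as LMX1A, and their median control level was 3.67 times the chronic level. In 87 of the 96 all 3 control libraries lay above all 3 chronic ones, where 8.01% of all genes tested did, and the same 87 of 96 was the count with library 16 above every chronic library. With 0.1 CPM added to each level, library 16 exceeded the chronic mean at least 2-fold in 60 genes and was under 1.5 times it in 7. Library 16 was among the libraries by which the 96 were chosen, so these counts are not independent of that choice.

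The number of calls changed with the libraries in the fit. A fit of only the 6 compared libraries called 4 genes, among them ITIH5, FSTL1 and FOXA1, and a fit of the 9 H9 libraries called 0 in edgeR, although 1003 lower and 500 higher genes had an unadjusted p under 0.05. Leaving out 1 library at a time gave 13 calls without library 12, 13 without 17, 41 without 11, 44 without 10, 48 without 18 and 178 without 16. Without both 17 and 18 there were 4, of which 3 (FREM1, ITIH5 and EN2) are among the 99, and 92 of the 96 lower genes still had a negative value. The 96 were chosen for negative values in these same libraries, so signs kept in refits are not independent of that choice. The share of all genes that kept their sign was not counted. The blood and gut split sets libraries 4, 8, 13, 17 and 18 against the rest. With it as a covariate there were 29 calls, all lower, and all 96 stayed negative. Without 11, 17 and 18 there was 1, the astrocyte gene GFAP, which is outside the 99.

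There were 8 genes that fell in the fit of all libraries and in each of the 6 fits that left out 1 compared library. They include FREM1, LYN, LMX1A, ITIH5, WNT5A, FSTL1 and STON1, and in each of these the 3 control libraries lay above the 3 chronic ones. FREM1 and ITIH5 also passed without 17 and 18, while the others named kept a negative value there that did not pass.

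**Figure D1:**
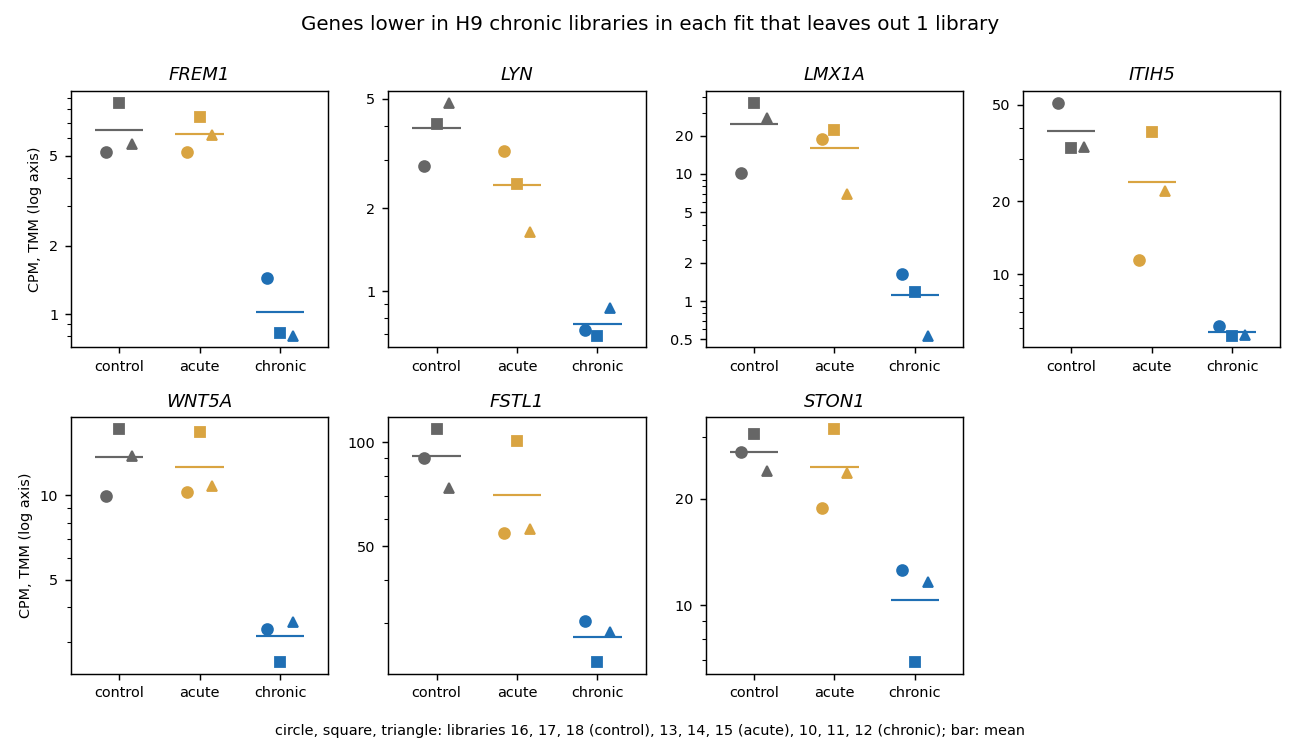
Level of 7 genes in each H9 library (CPM after TMM scaling, log axis), for control, acute and chronic dopamine, with the group mean as a bar. All chronic points lie below all control points, from 1.44 against 5.17 CPM at the nearest for FREM1 to 12.5 against 24 for STON1.

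FREM1 encodes an extracellular protein of the basement membrane that works with FREM2 and FRAS1. It stood at 1.44, 0.828 and 0.804 CPM in chronic libraries 10, 11 and 12 and at 5.17, 8.57 and 5.65 CPM in control libraries 16, 17 and 18. The groups were separated by a wide gap, and library 16 sat with 17 and 18. Its log2 fold change was -2.64 ± 0.28 (SE, adjusted p = 0.000202), the smallest p of the comparison. Without 17 and 18 it was -2.32 (adjusted p = 0.0219), with adjusted p-values of 8.74e-12 to 1 over all alternatives run. FREM2, its partner, fell from 11.2 ± 1.01 (SD, n = 3) to 3.8 ± 0.772 CPM (-1.55 ± 0.25, adjusted p = 0.00873). FREM1 spans chromosome 9 from 14737152 to 14910995 on the minus strand of GRCh38.

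A promoter window of FREM1 is printed because FREM1 is the leading gene and the window holds a site for AP-1. AP-1 is the factor of FOS and JUN proteins that dopamine and neuronal activity are known to induce. The window runs from 250 bases before to 50 after a RefSeq start (GRCh38.p14, chr9:14780382-14780681, minus strand). That start lies within the span of the gene given above and not at its upstream end, 14910995. The capitals mark TGANTCA, searched on both strands.
FREM1: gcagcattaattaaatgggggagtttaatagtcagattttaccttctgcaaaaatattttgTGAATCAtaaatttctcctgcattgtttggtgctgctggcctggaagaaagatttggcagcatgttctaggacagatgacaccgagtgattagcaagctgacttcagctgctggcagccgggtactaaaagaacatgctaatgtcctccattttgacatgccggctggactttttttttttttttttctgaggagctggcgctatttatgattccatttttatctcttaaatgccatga
That motif occurred in the windows of 6 of the 61 lower genes that have one (9.84%), of 7.17% of 12237 tested genes and of 7.71% of 35116 windows. FOS itself was at 14, 21 and 22 CPM in the chronic libraries and 17, 17 and 21.8 in the controls, 0.03 ± 0.18 on the log2 scale (adjusted p = 1). A match is a description of letters, not of binding.

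ITIH5, a heavy chain of the inter-alpha-trypsin inhibitor family that binds hyaluronan in matrix, was even among the chronic libraries. It was at 6.11, 5.59 and 5.63 CPM in the chronic libraries and at 51, 33.1 and 33.4 in the controls, highest in library 16. The log2 fold change was -2.76 ± 0.40 (adjusted p = 0.00445). Without 17 and 18 it was -3.14 (adjusted p = 0.0296), and with only the 6 compared libraries it passed as well (adjusted p = 0.0121), with 8.67e-15 to 0.607 over all alternatives. ITIH5 varied more among acute libraries 13, 14 and 15, at 11.4, 38.8 and 22.1 CPM. It lies on chromosome 10 (7559270 to 7666998).

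FSTL1 encodes a secreted glycoprotein that modulates BMP signalling. Its levels were 30.4, 23.1 and 28.3 CPM in the chronic libraries and 90, 109 and 73.8 in the controls (log2 fold change -1.74 ± 0.27, adjusted p = 0.00681). Library 16 lay between 17 and 18, and the value without 17 and 18 was -1.72. STON1, an adaptor of endocytosis, was at 12.5, 6.9 and 11.7 against 27.1, 30.6 and 24 CPM, -1.39 ± 0.22 (adjusted p = 0.00749).

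LYN, a kinase of the Src family that is abundant in blood cells and also present in neural cells, was at 0.722, 0.69 and 0.871 CPM in the chronic libraries and at 2.86, 4.06 and 4.85 in the controls. Its log2 fold change was -2.36 ± 0.28 (adjusted p = 0.000399) and -1.90 without the blood-bearing libraries. In the acute libraries it was at 3.24, 2.45 and 1.64 CPM.

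LMX1A, a LIM homeobox factor of roof plate, floor plate and dopaminergic progenitors, was at 1.64, 1.17 and 0.536 CPM in chronic libraries 10, 11 and 12. In control libraries 16, 17 and 18 it was at 10.1, 36.3 and 27.7 (log2 fold change -4.46 ± 0.63, adjusted p = 0.00445), and library 16 was the lowest control though well above the chronic ones. Without 17 and 18 the value was -3.17. EN1 and EN2, homeobox factors of midbrain and anterior hindbrain, fell by 3.62 ± 0.64 (adjusted p = 0.0138) and by 2.93 ± 0.58 (0.0193) on the log2 scale. EN1 was at 0.722, 0.207 and 0.536 CPM against 8.58, 4.32 and 5.49, highest in library 16. EN2 was likewise highest there (9.25, against 2.22 and 5.59 CPM in 17 and 18). Without 17 and 18 the values were -4.11 and -3.63.

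The forkhead factor FOXA1, known from floor plate and endoderm, had 7.29, 5.31 and 3.48 CPM in the chronic libraries and 25.6, 34.9 and 32.1 in the controls (-2.52 ± 0.45, adjusted p = 0.0125; -2.25 without 17 and 18). FERD3L, a helix-loop-helix factor of the floor plate, had 3 counts in all chronic libraries together and 70 in the controls (-4.21 ± 0.77, adjusted p = 0.0163; -3.71 without 17 and 18). Both were picked with their values in view. The related floor plate genes FOXA2 (-1.17 ± 0.40, adjusted p = 0.298) and LMX1B (-1.12 ± 0.29, 0.0912) had lower values that did not pass. Of the lists, 3 of 19 tested genes of the dopamine synthesis, transport and breakdown list fell and 0 rose. All 3 (LMX1A, EN1 and EN2) are developmental factors, not enzymes or transporters, and the list's median was -0.61, beside -0.000556 over all genes tested.

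The zinc-finger factors of the ZIC family act in dorsal and midline neural patterning. ZIC1 was at 4.86, 8.21 and 6.1 CPM in the chronic libraries and 13, 37.7 and 15.6 in the controls (-1.79 ± 0.36, adjusted p = 0.0249; -1.03 without 17 and 18). ZIC2 had 4 counts in the chronic libraries and 92 in the controls, with 3.94 CPM in library 17 against 0.365 in library 16 (-4.23 ± 0.94, 0.0444; -1.94 without 17 and 18). Acute libraries 13, 14 and 15 held ZIC1 at 50.5, 34.3 and 66.8 CPM and ZIC2 at 3.52, 4.79 and 8.34 CPM. Both acute means lay above the control means, without a call. DMRTA2, a factor of the dorsal telencephalic midline, was at 0.722, 0.896 and 0.268 against 2.37, 6.54 and 9.48 CPM (-3.28 ± 0.54, 0.00989; -1.91 without 17 and 18). It was the 1 of 18 tested dorsal forebrain genes that fell, and 0 rose (median -0.84). In that list NEUROD1 was at -1.73 ± 0.42 (0.0682) and PAX6 at 0.04 ± 0.21 (1).

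Wnt ligands and the R-spondins, which amplify Wnt signals, supplied 3 of the 28 tested Wnt genes that fell (0 rose, median -0.41). WNT5A, a ligand of the non-canonical pathway, was at 3.35, 2.55 and 3.55 CPM in the chronic libraries and 9.98, 17.2 and 13.8 in the controls. Its log2 fold change was -2.11 ± 0.31 (adjusted p = 0.00567), and -1.66 without 17 and 18. RSPO2 was at 4.6, 5.1 and 6.23 against 15.5, 39.6 and 27.8 CPM (-2.38 ± 0.45, adjusted p = 0.0158; -1.55 without 17 and 18), with library 16 lowest among controls. RSPO3 was at 0.197, 0.965 and 0.603 against 1.95, 2.35 and 2.45 CPM (-1.93 ± 0.38, 0.0193; -1.72 without 17 and 18). LMX1A and RSPO2 are also the 2 of 12 tested choroid plexus genes that fell, while 5 choroid plexus markers summed to only 1.87 to 3.58 CPM in chronic and 5.23 to 7.74 CPM in control libraries, with KCNJ13 at 0 in all 3 controls.

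Matrix genes held the largest falls and the largest differences between control libraries. Of 27 tested genes of the mesenchyme, collagen and matrix list 12 fell and 0 rose, with 26 negative values and a median of -0.97 beside -0.000556 over all genes. The fibrillar collagens split the controls. COL1A1, the main collagen of connective tissue, was at 1.31, 1.1 and 1.14 CPM in the chronic libraries and at 1.03, 154 and 128 CPM in controls 16, 17 and 18. Library 16 was therefore as low as the chronic libraries, and the value of -6.30 ± 1.14 on the log2 scale (adjusted p = 0.0136) turned to 0.20 without 17 and 18. COL3A1 was at 0.608, 72.8 and 54.4 CPM in the controls and at most 0.402 in the chronic libraries (-7.52 ± 1.31, adjusted p = 0.0125; -1.41 without 17 and 18).

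COL1A2 (-5.62 ± 1.00, adjusted p = 0.0125) and COL6A3 (-4.92 ± 0.84, 0.0125) had the same split, with 2.01 and 0.669 CPM in library 16 and over 16 CPM in 17 and 18. Without 17 and 18 their values were -0.68 and -0.72. Fibronectin, FN1, was at 28, 8.28 and 15.8 CPM in the chronic libraries and 17.3, 136 and 116 in the controls (-2.36 ± 0.47, adjusted p = 0.0214; 0.01 without 17 and 18). In the acute libraries, which share these controls, FN1 was at 19.9, 24.3 and 25.6 CPM.

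**Figure D2:**
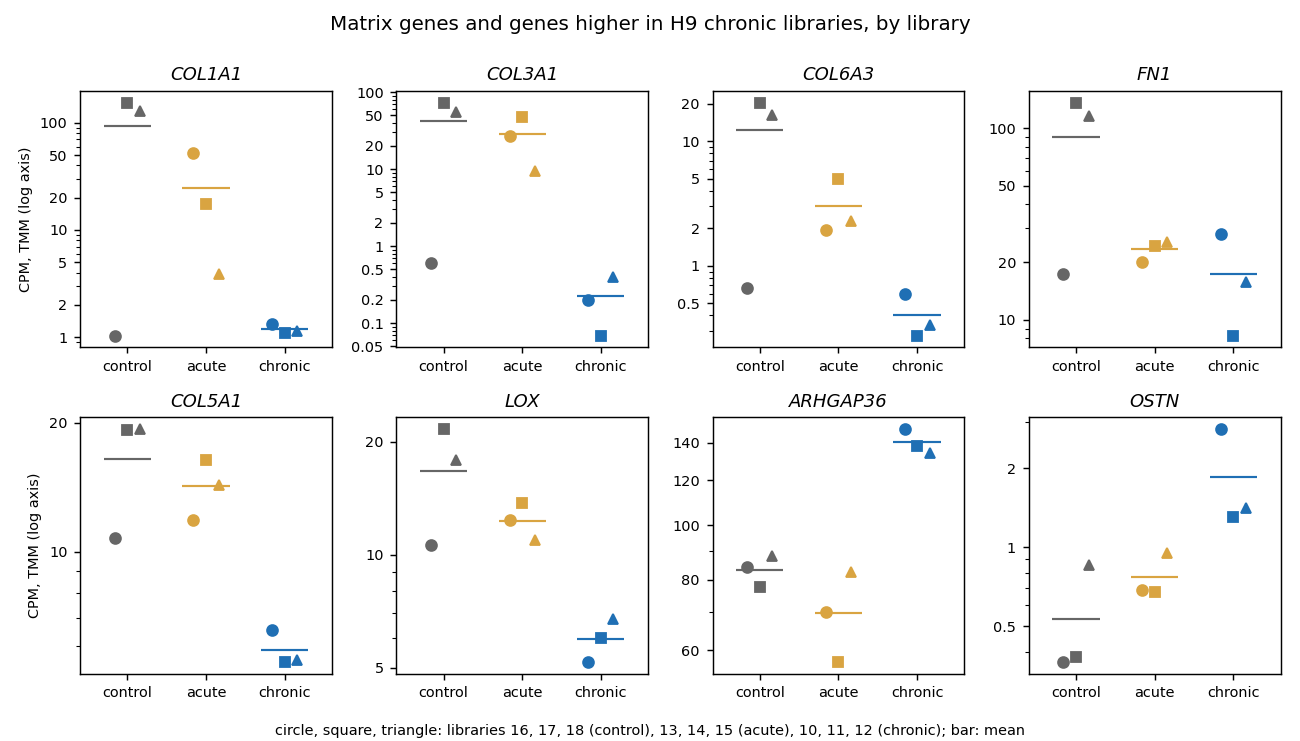
Level of 6 matrix genes that fell and 2 genes that rose in each H9 library (CPM after TMM scaling, log axis), with group means as bars. Control library 16 (circle) lies with the chronic libraries for COL1A1 (1.03 CPM) and FN1 (17.3 CPM) and above them for COL5A1 (10.8 CPM) and LOX (10.6 CPM).

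Other matrix genes were lower in the chronic libraries than in each control. COL5A1 was at 6.57, 5.52 and 5.56 CPM in the chronic libraries and at 10.8, 19.2 and 19.3 in the controls (-1.48 ± 0.24, adjusted p = 0.00766; -0.87 without 17 and 18). LOX, which cross-links collagen, was at 5.19, 6 and 6.77 against 10.6, 21.6 and 17.8 CPM (-1.48 ± 0.26, 0.0125; -0.82 without 17 and 18). MMP2, a gelatinase, was the most even of these, at 10.5, 14.4 and 10.5 against 22.9, 25.2 and 21.4 CPM (-0.97 ± 0.19, 0.021; -0.95 without 17 and 18). The small proteoglycan DCN was at 9, 8.62 and 6.77 against 16, 52.8 and 51 CPM (-2.30 ± 0.42, 0.0149; -0.98 without 17 and 18). COL5A2 and COL8A1 also fell, with -0.89 and -1.72 left without 17 and 18.

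**Figure D3:**
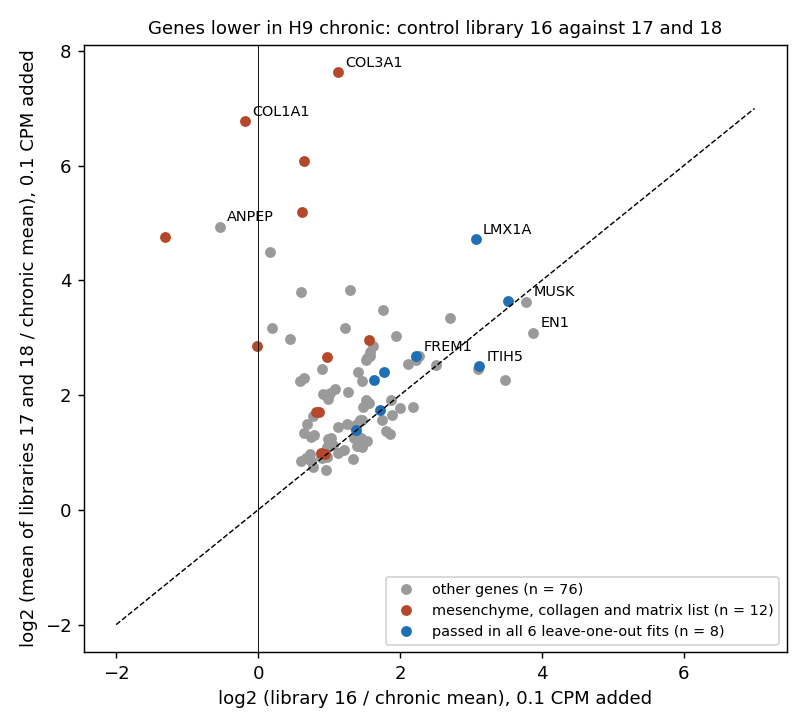
For the 96 genes that fell, log2 of control library 16 over the chronic mean (x axis) against log2 of the mean of control libraries 17 and 18 over the chronic mean (y axis), with 0.1 CPM added to each level. Red points are the 12 matrix genes, blue the 8 genes that fell in every fit with 1 library left out, and the dashed line marks equal values. COL1A1 and ANPEP lie left of 0, and ITIH5 and EN1 lie below the line.

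Further calls were of genes high in control libraries 17 and 18. ANPEP, an aminopeptidase of myeloid, gut and stromal cells, had 2 counts in the chronic libraries and 149 in the controls, 0 of them in library 16 (-5.79 ± 1.27, adjusted p = 0.0441; 2.72 without 17 and 18). MPEG1, a pore-forming protein of macrophages, was at 0.0608 CPM in library 16 and 3.49 and 2.82 in 17 and 18 (-5.34 ± 1.18, 0.0441; -0.39 without them). Transglutaminase TGM2 was at 0.365, 5.33 and 2.98 CPM in the controls (-3.78 ± 0.80, 0.0328; -0.82 without 17 and 18). In acute libraries 13 (blood-bearing), 14 and 15, TGM2 was at 0.345, 0.885 and 0.442 CPM. MPEG1 was at 0.276, 0.052 and 0.253 CPM there, and ANPEP at 0.896, 0.468 and 0.19. In all, 12 of the 96 had a mean of 17 and 18 more than 4 times library 16. Of the 13 tested genes of the blood list itself 0 passed, with 13 negative values and a median of -6.09, for example HBA2 at -8.59 ± 2.38 (adjusted p = 0.127) and PTPRC at -6.07 ± 1.61 (0.107).

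Of the following 4 genes of TGF beta signalling, a pathway known to drive matrix synthesis, TGFBR2, SMAD3 and LTBP1 were picked with their values in view. The receptor TGFBR2 was at 0.657, 0.414 and 0.469 CPM in the chronic libraries and 1.34, 6.03 and 4.79 in the controls (-2.96 ± 0.56, adjusted p = 0.0158; -1.37 without 17 and 18). SMAD3, which carries the signal to the nucleus, was at 10, 11.4 and 11.5 against 18.5, 21 and 18.7 CPM, even in both groups (-0.82 ± 0.17, 0.028; -0.75 without 17 and 18). TGFBI, a matrix protein named for its induction by TGF beta, fell by 2.55 ± 0.48 on the log2 scale (0.0163), with library 16 at 3.95 CPM and chronic library 10 at 4.2, and was at -0.47 without 17 and 18. LTBP1, which stores the latent ligand in matrix, fell by 1.40 ± 0.31 (0.0441; -0.79 without 17 and 18). On the BMP and TGF beta list, TGFBI was the 1 of 20 tested genes that fell, and 0 rose (median -0.28).

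The genes FOXJ1, CFAP126, CFAP54 and VWA3A were picked from the 96 after their values were seen, and how many ciliary genes were tested was not counted. FOXJ1, the master factor of motile cilia and ependymal cells, was at 2.89, 4.97 and 4.42 CPM in the chronic libraries and 15.4, 15.1 and 11.1 in the controls (-1.76 ± 0.36, adjusted p = 0.0249; -1.91 without 17 and 18). The cilia and flagella associated genes CFAP126 and CFAP54 fell by 1.65 ± 0.32 (0.0166) and by 1.52 ± 0.30 (0.0193) on the log2 scale, with -1.78 and -1.46 without 17 and 18. VWA3A was at 1.64, 1.52 and 2.08 against 7.3, 7.18 and 5.27 CPM (-1.91 ± 0.39, 0.0274; -2.06 without 17 and 18). Library 16 was the highest control for FOXJ1 and VWA3A.

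Of 27 tested interferon and antigen presentation genes 2 fell and 0 rose (median -0.39). IFITM3, a membrane protein that blocks virus entry, was at 1.51, 1.24 and 1.47 CPM in the chronic libraries and 3.53, 8.32 and 3.94 in the controls (-1.89 ± 0.33, adjusted p = 0.0125). HLA-E, a non-classical antigen-presenting molecule, was at 18.1, 21.2 and 15.7 against 27.9, 34.1 and 32.3 CPM (-0.78 ± 0.15, 0.0166). The values without 17 and 18 were -1.32 and -0.61. In the acute libraries IFITM3 was at 1.66, 2.86 and 2.08 CPM.

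Glial and progenitor lists held mostly negative values with few calls. CD44, a hyaluronan receptor, was the 1 of 15 astrocyte genes that fell (-1.15 ± 0.23, adjusted p = 0.024; -0.66 without 17 and 18; median of the list -0.20), and GFAP was at -1.45 ± 0.39 (0.112). Without 11, 17 and 18, GFAP was at -2.62 (adjusted p = 0.0277, with 0.0002 to 1 over all alternatives). Of 30 cell cycle genes 0 passed, with 27 negative values and a median of -0.32. The mitotic spindle gene ASPM came nearest, at 2.95, 2.34 and 3.62 against 5.6, 6.54 and 5.65 CPM (-0.99 ± 0.23, 0.053). Of 20 radial glia and progenitor genes 0 passed, 17 were negative and the median was -0.44, with the Notch ligand DLL1 at -0.71 ± 0.23 (0.247).

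Neuronal lists leaned the other way by small amounts. Of 32 neuronal and synaptic genes 0 passed, 27 had positive values and the median was 0.13. SYP, a synaptic vesicle protein, was at 716, 1212 and 806 CPM in the chronic libraries and 687, 562 and 663 in the controls (0.52 ± 0.28, adjusted p = 0.704), and the highest value was that of library 11. Of 24 voltage-gated channel genes 0 passed (median 0.13), and of 23 nuclear genes of the respiratory chain 0 passed with 22 positive (median 0.20). The respiratory chain list summed to 3054 CPM in library 11. It summed to 2085 and 2149 CPM in chronic libraries 10 and 12, within the range of the controls (2047 to 2289).

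**Figure D4:**
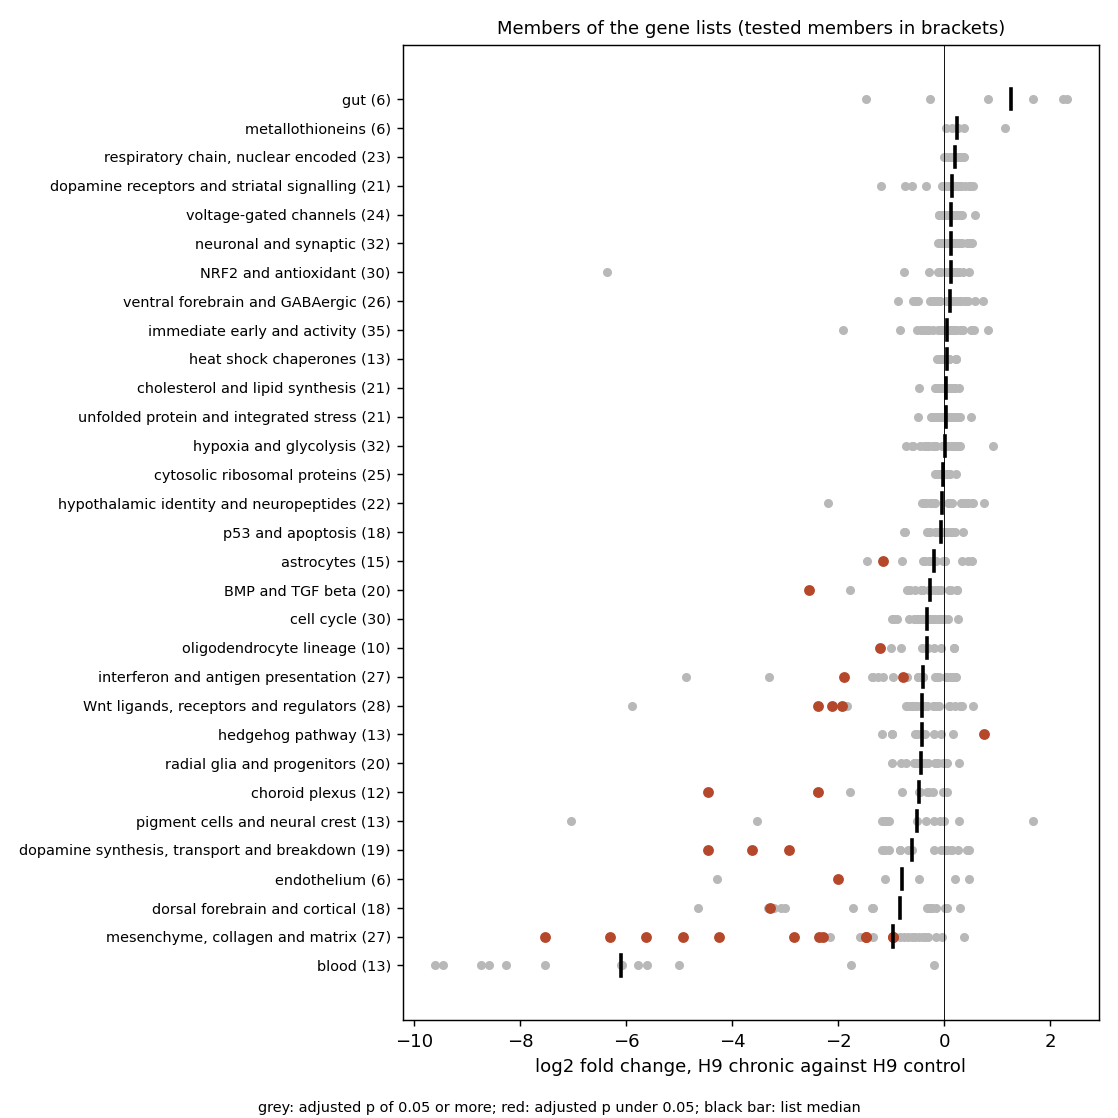
Log2 fold change of every tested member of 31 gene lists, H9 chronic against H9 control, with list medians as black bars and members past the threshold in red. The mesenchyme, collagen and matrix list has 12 red points and a median of -0.97, and the blood list reaches a median of -6.09 with 0 red points.

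Only 3 genes rose. ARHGAP36, which activates GLI factors of the hedgehog pathway by restraining protein kinase A, was at 148, 138 and 134 CPM in chronic libraries 10, 11 and 12. It was at 84.4, 77.6 and 88.2 CPM in control libraries 16, 17 and 18, and the groups stood well apart with little spread in either. Such a gap with chronic above control was present in 5.4% of all genes tested. The log2 fold change was 0.75 ± 0.17 (adjusted p = 0.0447) and 0.73 without 17 and 18. It passed in 1 of the 6 fits that left out a compared library, and it was the 1 of 13 hedgehog pathway genes that passed (2 of 13 positive, median -0.42). In the acute libraries it was at 70.1, 57.2 and 82.6 CPM.

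ARHGAP36 spans chromosome X from 131058346 to 131089885 (GRCh38). Its promoter is printed because it is a gene that rose and its window holds the antioxidant response element, the site of NRF2, a factor activated by oxidative stress. The window is chrX:131058096-131058395 on the plus strand (RefSeq, GRCh38.p14). The capitals mark the reverse complement of TGACNNNGC, which was searched on both strands and can overlap the AP-1 letters.
ARHGAP36: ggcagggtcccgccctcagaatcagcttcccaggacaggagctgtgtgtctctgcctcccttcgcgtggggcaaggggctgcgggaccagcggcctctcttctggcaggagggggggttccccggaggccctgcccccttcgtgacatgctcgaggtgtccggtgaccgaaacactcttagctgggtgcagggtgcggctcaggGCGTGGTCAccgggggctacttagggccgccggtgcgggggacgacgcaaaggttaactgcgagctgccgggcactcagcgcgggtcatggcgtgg
The motif occurred in the windows of 7 of 61 lower genes (11.5%), of 19% of the tested genes and of 13.3% of all windows.

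OSTN, a secreted peptide that primate cortical neurons make with activity, was at 2.82, 1.31 and 1.41 CPM in the chronic libraries and at 0.365, 0.381 and 0.852 in the controls (1.75 ± 0.39, adjusted p = 0.046; 2.32 without 17 and 18). LOC390937, a locus without a gene name in the table, was at 21.1, 40.5 and 22.9 against 13.7, 11.5 and 15 CPM (1.07 ± 0.23, 0.0356), highest in library 11. None of the 3 passed in all fits with a library left out. The next genes by p did not pass: ME3, a mitochondrial malic enzyme (0.67 ± 0.17, 0.0796), GSG1L, an auxiliary protein of AMPA receptors (0.61 ± 0.15, 0.0835), the imprinted RTL1 (0.77 ± 0.19, 0.0894), C10orf82 (1.13 ± 0.29, 0.1), CRHBP, which binds corticotropin-releasing hormone (0.74 ± 0.20, 0.121), GLT1D1 (0.60 ± 0.17, 0.127) and GABRE, a GABA-A receptor subunit (0.77 ± 0.22, 0.14). In CRHBP, 38.1, 38.5 and 36 CPM stood against 24.6, 18.4 and 24.6.

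Genes of dopamine signalling themselves did not pass. Of 21 tested genes of the dopamine receptor and striatal list 0 rose and 0 fell (median 0.15). DRD2 was at 27.2, 39.5 and 27.1 CPM in the chronic libraries and 24.1, 17.8 and 25 in the controls (0.49 ± 0.22, adjusted p = 0.566), so the groups did not overlap though the difference did not pass. DRD5 was at 5.65, 5.93 and 5.76 against 3.16, 3.87 and 4.9 CPM (0.53 ± 0.32, 0.777). DRD1 was at 5.58, 1.79 and 3.35 against 3.53, 3.05 and 4.53 CPM (-0.05 ± 0.34, 1), and the groups overlapped. DRD4 had 11 counts in the chronic and 9 in the control libraries (0.47 ± 1.60, 0.998), and DRD3 was too low to test. PPP1R1B, the phosphatase inhibitor DARPP-32 of striatal neurons, had 14 and 37 counts (-1.20 ± 0.68, 0.741). FOXP1, a striatal factor, was at 20, 15.4 and 15.5 against 24.8, 28.7 and 31.1 CPM (-0.73 ± 0.19, 0.0907).

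Among enzymes and transporters, TH was at 19.8, 30.2 and 18 CPM in the chronic libraries and 18.9, 13.4 and 17 in the controls (0.46 ± 0.22, adjusted p = 0.578), with the highest value in library 11. DDC was at 7.94, 10.2 and 9.98 against 21.2, 14.2 and 14.8 CPM (-0.83 ± 0.28, 0.279). The groups for DDC did not overlap, but the difference did not pass. SLC18A2 (-0.19 ± 0.14, 0.876) and MAOA (0.02 ± 0.18, 1) did not pass either.

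GABAergic and ventral forebrain genes had slightly higher values. Of 26 tested genes 0 passed, 15 were positive and the median was 0.11. GAD1 was at 939, 747 and 929 CPM in the chronic libraries against 624, 575 and 765 CPM (0.41 ± 0.34, adjusted p = 0.909), GAD2 at 0.45 ± 0.34 (0.884) and the vesicular GABA transporter SLC32A1 at 0.59 ± 0.31 (0.684). For GAD1 the lowest chronic library, 11, lay below the highest control. NKX2-1 was at 0.30 ± 0.26 (0.929), and the hypothalamic peptide HCRT at 16.5, 22.2 and 18.2 against 12.8, 10.6 and 10.3 CPM (0.76 ± 0.30, 0.403).

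Genes of oxidative stress and of neuronal activity did not pass at the end of the final dose. Of 30 NRF2 and antioxidant genes 0 rose and 0 fell, 24 had positive values and the median was 0.12. The list summed to 5597 CPM in library 11. It summed to 4289 and 4109 CPM in chronic libraries 10 and 12, below the controls (4301 to 4524). HMOX1, heme oxygenase, was at 18, 14.8 and 9.72 CPM in the chronic libraries and 11.2, 9.72 and 9.75 in the controls (0.47 ± 0.23, adjusted p = 0.622), and chronic library 12 lay with the controls. NQO1 was at 18.6, 18.7 and 16.7 against 14.1, 15.5 and 17.3 CPM (0.20 ± 0.17, 0.918). TXNIP, which binds thioredoxin, was at 165, 238 and 254 against 394, 471 and 248 (-0.76 ± 0.34, 0.549). Catalase, CAT, had 0 counts in the chronic libraries and in control 16, and 33 counts in 17 and 18 (adjusted p = 0.0714), the same libraries as the globins.

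Of 35 tested immediate early and activity genes 0 passed (median 0.05). VGF, a neuropeptide precursor induced by activity, was at 347, 706 and 438 CPM in the chronic libraries and 345, 225 and 276 in the controls (0.82 ± 0.24, adjusted p = 0.157). The highest value was again that of library 11, and VGF without 11, 17 and 18 was at 0.19. NR4A2, both an early gene and a factor of dopamine neurons, was at 9.52, 10.2 and 6.97 against 11.7, 18.1 and 17.8 CPM (-0.84 ± 0.27, 0.228). NR4A1 was at 0.21 ± 0.20 (0.947). The remaining stress lists gave 0 calls, with medians of 0.25 for 6 metallothioneins, 0.05 for 13 heat shock chaperones, 0.03 for 21 unfolded protein genes, 0.01 for 32 hypoxia and glycolysis genes and -0.07 for 18 p53 genes.

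Acute H9 libraries were compared with the same controls, so their values are set side by side and not correlated. No gene passed for acute dopamine (0% of genes tested in edgeR; without adjustment 227 lower and 166 higher had a p under 0.05). The 96 genes were picked for low chronic values, which enter this comparison too. For 81 of them all 3 acute libraries lay above all 3 chronic ones, as they did in 10.6% of all genes tested. FREM1 was at 5.17, 7.39 and 6.19 CPM in acute libraries 13, 14 and 15, as high as the controls. EN2 was at 7.79, 22.6 and 6.63. COL1A1 was at 52.8, 17.4 and 3.85 CPM and COL1A2 at 36.8, 17.2 and 2.97, both highest in blood-bearing library 13. COL3A1 (26.8, 48.1 and 9.54 CPM) and COL6A3 (1.93, 4.94 and 2.27 CPM) were highest in library 14, which had 0 HBB counts. MUSK, a receptor kinase of the neuromuscular junction, was at 1.38, 1.82 and 0.821 CPM in the acute libraries and at 1.28, 1.52 and 0.746 in the controls. It had 0 counts in all 3 chronic libraries, at least 17.2-fold lower than the controls against a floor of 3 counts over the group.

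The chronic effect differed between the lines for 303 genes (1.76%), 292 of them more negative in H9. For 64 of the 96 lower genes the difference passed, a count that uses the same H9 libraries as the choice of the 96. In H1, whose control group includes 1 library of 43284 counts, 1.42% of genes passed (229 higher and 15 lower). Of the 96 genes, 0 fell and 6 rose there. H1 control library 8 is on the blood side of the split that was used as a covariate. With that split the difference between lines passed for 306 genes, and without library 8 for 68. WNT5A had log2 fold changes of -2.11 ± 0.31 in H9 and 2.10 ± 0.39 in H1 (adjusted p = 0.00749), a difference of -4.21 (adjusted p = 0.000209). FREM2 (1.68 ± 0.33 in H1, adjusted p = 0.0104), MMP2 (1.60 ± 0.26, 0.00298), CFAP54 (1.69 ± 0.39, 0.0298) and the transcriptional coactivator WWTR1 (1.45 ± 0.30, 0.015) also rose in H1. ITIH5 differed by -5.07 (0.00118) and FREM1 by -3.19 (0.000226), each with an H1 value that did not pass. OSTN differed in the other direction, by 2.51 (0.00905). For GAD1, 0.41 ± 0.34 in H9 stood beside 3.09 ± 0.44 in H1, a difference of -2.67 (0.0124).

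**Figure D5:**
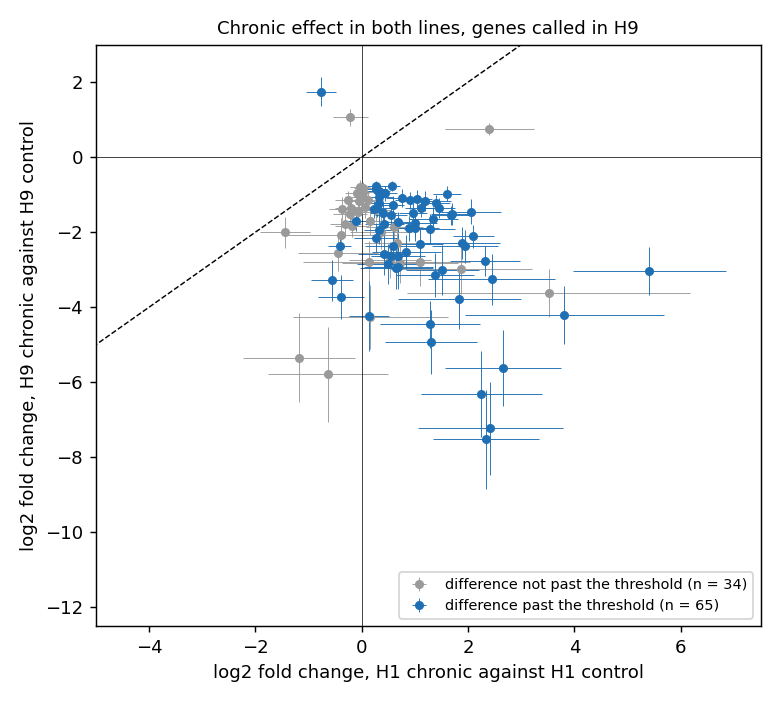
Log2 fold change of chronic dopamine against control in H9 (y axis) and H1 (x axis) for the 99 genes called in H9, with standard errors as bars and the dashed line at equal values. Blue points are the 65 genes whose difference between lines passed; most lie below 0 in H9 and right of 0 in H1.

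The authors' deposited table of chronic dopamine holds 213 genes, 207 of them with a negative signed fold. The table's labels do not name the line. For the 201 genes tested here, its log2 sizes differed from those of the H9 comparison by a median of 0.0106 and at most 0.0541, whereas the median difference from the H1 chronic comparison was 2.91. In the authors' deposited table the sign of the log2 column was opposite to that of the signed fold for all 213, and the signed fold is used here. HBB has a signed fold of -749.26 in the authors' deposited table, and S100A9, a neutrophil protein, has -692.8. Both are blood transcripts of controls 17 and 18. The table and the calls here share 84 genes, 39.4% of the authors' deposited table and 84.8% of the 99, all with the same sign. Of the 196 genes lower in the authors' deposited table and tested here, 161 had control library 16 above all 3 chronic libraries. The table's log2 sizes match the H9 comparison, which includes library 16, so its genes were not chosen apart from that library. The share over all genes tested was not counted.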

How the data were processed

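RNA was measured in 18 libraries of day 83 organoids, grouped by the labels, and the comparison uses 6 of them. Per the labels' protocols, poly(A) RNA went into paired-end libraries that keep the strand (dUTP method). GRCh38 and hg38, the same assembly, stand in the submitters' processing notes. The aligner, the counter and the annotation were not given in the sources used here. For 53853 gene symbols the authors deposited raw counts and TPM values of the same genes, used in an alternative. The authors' deposited chronic table gives a log2 fold change, a signed fold read here as a score, and an FDR p-value. Of the symbols, 28 had turned into dates (0.439% of counts) and stayed unnamed.

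Genes passing filterByExpr of edgeR 4.0.16 (R 4.3.3) with the 6 groups were tested, 17173 in all, in 1 fit of the 18 libraries with TMM scaling, by quasi-likelihood F test. The threshold was 0.05 after Benjamini-Hochberg adjustment. The SE is the size of the log2 fold change over the square root of F. Values in sentences are CPM after TMM. Alternatives used limma 3.58.1, DESeq2 1.42.0 and sva 3.50.0. The test was tested on simulated data. Floors cover counting error only, whereas the SE includes the library-to-library spread that the fit estimates.

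The members, the 33 gene lists and the alternatives were chosen with earlier results of these data known. The rule for naming genes took, with a mean log2 CPM of at least 0, the 12 largest changes in each direction, filled up to 10 by p where fewer passed, then the up to 8 that passed with each library left out, up to 4 of smallest p in each list, a set of dopamine, stress and GABA genes, and the 5 of smallest p in each direction for the difference between lines. Some that it selects are not reported here. The genes TGFBR2, SMAD3 and LTBP1, those of cilia, and FREM2, FOXA1, ZIC1, ZIC2, FERD3L, MUSK, MMP2 and WWTR1 among others, were chosen after their values were seen. Positions are from GENCODE 44 (GRCh38). Promoters are from RefSeq. The mitochondrially encoded genes were not analysed here.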

Additional observations from a re-analysis of the deposited data

Results flagged for a closer look

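A difference between the lines stood out for 46 of the genes named above, by the interaction term of edgeR's quasi-likelihood fit (adjusted p under 0.05 over all genes tested). Each value below is the log2 fold change of chronic dopamine in H9 minus that in H1. It was negative for 44 of the 46. It still passed for 37 without library 9, the H1 control of 43284 counts, and no longer for EN2, DMRTA2, FOXA1, ZIC1, FERD3L, FN1, TGM2, TGFBR2 and SLC32A1. The cause of the difference was not tested.

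Among the genes that fell in every fit with 1 library left out, the values were those of FREM1 (-3.19), LYN (-1.95), LMX1A (-5.74), ITIH5 (-5.07), WNT5A (-4.21), FSTL1 (-2.42) and STON1 (-1.61). The patterning and Wnt genes were EN2 (-3.63), DMRTA2 (-2.72), FOXA1 (-3.36), LMX1B (-3.93), ZIC1 (-2.22), ZIC2 (-4.37), RSPO2 (-4.32), RSPO3 (-2.26) and FERD3L (-8.02). Of these LMX1B passed only as a difference, with 2.81 in H1. Its mean level was 0.11 CPM in H1 control libraries 7 and 8 and 0.842 in the H1 chronic libraries. For FERD3L these means were 0 and 0.101 CPM, so its -8.02 is a fitted value that is no bound.

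Among matrix and related genes they were COL1A1 (-8.55), COL1A2 (-8.27), COL3A1 (-9.86), COL6A3 (-6.23), COL5A1 (-1.89), COL5A2 (-1.41), LOX (-2.45), FN1 (-2.96), MMP2 (-2.57), DCN (-4.19), FREM2 (-3.23), TGM2 (-5.62), TGFBR2 (-3.61) and WWTR1 (-2.80). The H9 values of COL1A1, COL1A2, COL3A1, COL6A3, FN1 and TGM2 shrank to between -1.41 and 0.20 without control libraries 17 and 18. The 4 genes described with cilia were FOXJ1 (-2.76), CFAP126 (-3.00), CFAP54 (-3.21) and VWA3A (-3.18). Immune, glial and progenitor genes were IFITM3 (-2.78), HLA-E (-1.05), CD44 (-2.06), ASPM (-1.31) and DLL1 (-1.40). MUSK, without a count in the H9 chronic libraries, had -9.64, a fitted value that is no bound. Its mean was also low in H1, 0.0269 CPM in control libraries 7 and 8 and 0.173 in the chronic libraries.

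Genes of GABAergic and ventral identity were more positive in H1, namely GAD1 (-2.67), SLC32A1 (-2.11) and NKX2-2 (-3.38), and so was DDC (-6.57), none of which passed in H9. NKX2-2 was low in H1, with means of 0.0857 CPM in control libraries 7 and 8 and 1.3 in the chronic libraries. Positive differences were those of OSTN (2.51) and ME3 (1.30).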

How the results depend on the processing

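The 99 calls became 438 without a filter on low counts, 185 at an adjusted p under 0.1, 59 with glmTreat against a fold of 1.2, 59 with DESeq2's Wald test, 33 with 1 surrogate variable (7 higher and 26 lower, with 1637 higher and 809 lower by unadjusted p), 29 with the blood and gut split as a covariate and 15 with that split and no library 9. They became 7 with limma on log2(TPM + 1), 0 on log2(TPM + 0.1) (238 lower and 31 higher had an unadjusted p under 0.05), 4 with only the 6 compared libraries, 0 with only the 9 H9 libraries, 4 without both 17 and 18 and 1 without 11, 17 and 18. Leaving out 1 library gave 13 (without 12 or 17) to 178 (without 16). The other scalings, a filter of 1 CPM and the fit without library 9 gave 93 to 114. The difference between lines, 303 genes, became 164 with DESeq2, and 68 (without H1 control 8) to 377 (without H9 chronic 11) with 1 library left out. The alternatives without 11, 17 and 18 and with the split and no library 9 were added after seeing the data. With both or all 3 left out, control library 16 is assumed to vary like the other groups.

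Of 2009 recomputed values of 88 named genes, 1382 kept direction and call, 556 no longer passed, 33 newly passed and 38 reversed. Without 17 and 18, and without 11, 17 and 18, the log2 values were 0.1957 and 0.244 for COL1A1, 0.008859 and 0.3436 for FN1, 2.72 and 2.367 for ANPEP, and 0 and 0 for CAT, since library 16 is the only control left. MPEG1 reached 0.1085 without 11, 17 and 18. The rest reversed near 0 or at low counts, with no call. DRD1 had 0.2674 without 11, 0.1219 without 18, 0.02049 without 17 and 18, 0.3392 without all 3 and 0.2972 with the surrogate variable. DRD4 had -0.389 without 11, -0.4395 without 11, 17 and 18 and -0.3684 with the split. With DESeq2's size factors and its Wald test PAX6 had -0.007454 and -0.007276, MAOA -0.01222 and -0.01188, and FOS -0.03434 and -0.03378. On log2(TPM + 1) and log2(TPM + 0.1) PAX6 had -0.01778 and -0.01891, MAOA -0.05615 and -0.05736, and FOS -0.04747 and -0.04932. MAOA had -0.03749 without 10, -0.0652 without 12, -0.02009 without 17, -0.009184 with the split and -0.004839 with the split and no library 9. FOS had -0.04708 without 11, -0.08198 without 12, -0.02914 without 16 and -0.03031 without 17. With 1 library left out the lowest and highest were -0.08198 and 0.2122 for FOS, -0.5247 and 0.2674 for DRD1, -0.389 and 0.9157 for DRD4, and -0.0652 and 0.1625 for MAOA. The cause of the other changes was not tested.

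No paired analysis was possible because the labels number the libraries 1 to 18 across groups, so no number is shared. Genes near the floor of 3 counts per library, such as DRD4, are limited by depth.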
